A study of Mus musculus with 8 samples.

Results

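The genes described here are 38 endothelial and angiogenesis genes of the mouse, picked by gene symbol from the 23361 genes of an RNA sequencing table that compares cancers of the gastric squamous-columnar junction (SCJ, where squamous forestomach meets glandular stomach) with SCJ tissue of wild type stomachs. The 5 cancers were Trp53-/-Rb1-/- tumors of mice that carried Lgr5-eGFP-IRES-CreERT2, loxP-flanked Trp53 and Rb1 and the Ai9 tdTomato reporter, taken after tamoxifen had switched on the Cre recombinase. The Lgr5 promoter drives that Cre, so the deletions were aimed at Lgr5-expressing stem cells and not at vessels. The 3 controls were SCJ compartments of wild type, age-paired mice, and the methods give tamoxifen to control mice of the tumor induction work without naming these 3. Tumors were cut out along their tdTomato border, so every library was bulk tissue with vessels, stroma, epithelium and blood in it. In such libraries more endothelial cells and more of an RNA per endothelial cell cannot be told apart.

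Endothelial cells line all blood vessels and hold together through junction proteins such as VE-cadherin (Cdh5) and PECAM1. New vessels grow mainly under the VEGF ligands, which bind the receptors VEGFR1 (Flt1), VEGFR2 (Kdr) and VEGFR3 (Flt4) with neuropilins as co-receptors, while angiopoietins acting on TIE2 (Tek) set how stable a vessel is. Angiopoietin-1 keeps vessels quiet, and angiopoietin-2 loosens them at sites of growth.

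Of the 38 genes, 18 were higher and 1, Vegfb, was lower in the cancers at an adjusted p under 0.05 (limma, Benjamini-Hochberg over all 14357 genes tested), and 19 did not pass. Over all genes tested 16.2% were called higher and 18.3% lower. The median log2 fold change of the 38 was 0.94, against -0.04 for all genes tested. All 38 passed the filter on low values (at least 1 FPKM in at least 3 libraries, where FPKM is the number of fragments per kilobase of a transcript at a set number of mapped fragments). However, 9 of them were listed at 0 in all 3 controls and so passed only through the cancers, and 8 of these 9 were among the 18. The other 29 had a median log2 fold change of 0.92, and 10 of them were called higher. Changes are given on the log2(FPKM + 1) scale, which understates the change of low genes, and the fitted changes of the 9 genes at 0 in every control, which enter the median of the 38, depend on the pseudocount.

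**Figure D1:**
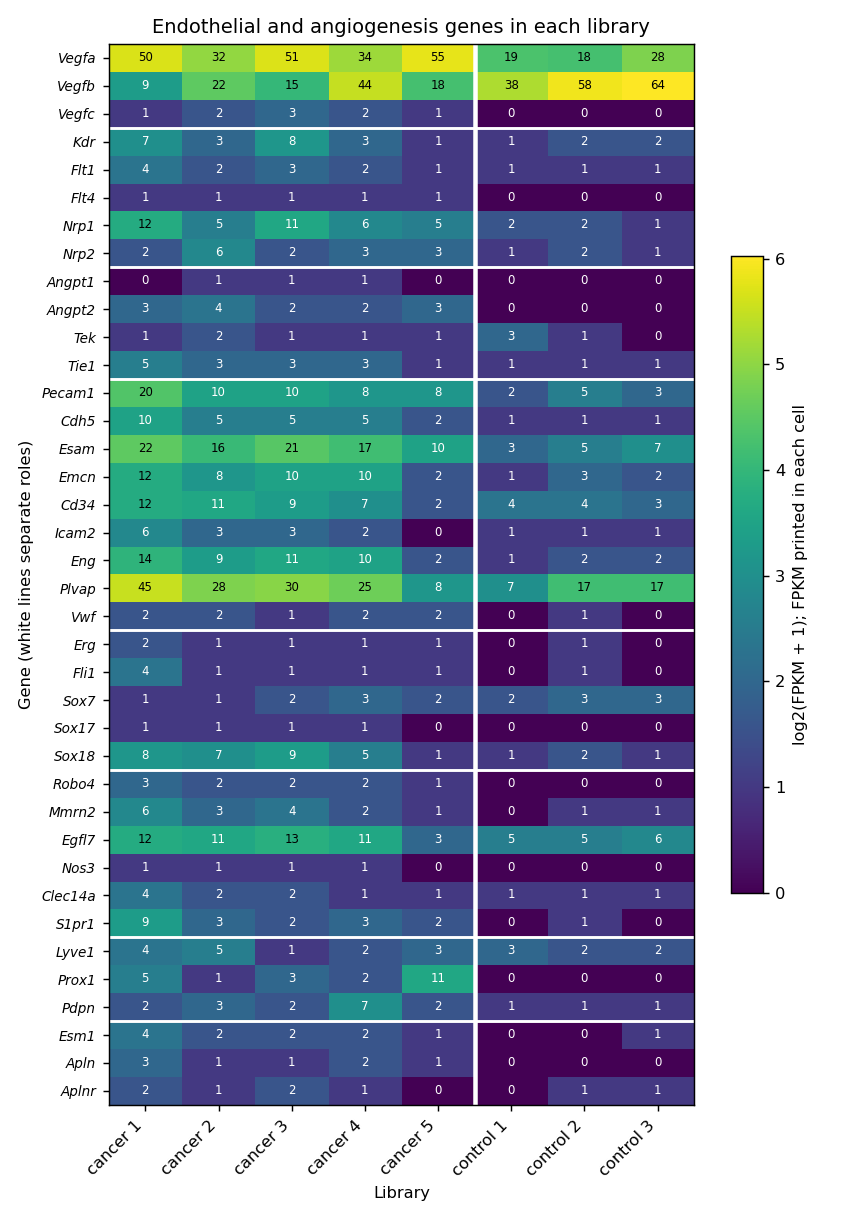
Heat map of log2(FPKM + 1) for the 38 genes (rows, grouped by role) in cancers 1 to 5 and controls 1 to 3 (columns), with the FPKM printed in each cell. Brighter colours are higher levels. Cancers 1 to 4 were brighter than the controls in most rows, and cancer 5 alone was the lowest of the cancers in 18 of them.

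Promoters are shown for 3 genes that were higher in cancers 1 to 4 than in any control and not in cancer 5, Eng (endoglin, a TGF-beta co-receptor), Emcn (endomucin, a sialomucin of veins and capillaries) and Tie1 (an orphan partner of TIE2), because ERG and FLI1, factors that bind the ETS core AGGAAG, are themselves among the 38. Each runs 5′ to 3′ from 250 bases before to 50 bases after a RefSeq start (GRCm38.p6), at chr2:32646345-32646644 on the plus strand, chr3:137340828-137341127 on the plus strand and chr4:118489800-118490099 on the minus strand, and capitals mark the ETS core read on either strand.
Eng promoter: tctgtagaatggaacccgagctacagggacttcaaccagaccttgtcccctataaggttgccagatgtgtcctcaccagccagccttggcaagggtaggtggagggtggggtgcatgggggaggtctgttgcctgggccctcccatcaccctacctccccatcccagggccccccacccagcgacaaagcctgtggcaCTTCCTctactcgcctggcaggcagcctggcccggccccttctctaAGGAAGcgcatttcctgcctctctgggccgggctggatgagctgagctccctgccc
Emcn promoter: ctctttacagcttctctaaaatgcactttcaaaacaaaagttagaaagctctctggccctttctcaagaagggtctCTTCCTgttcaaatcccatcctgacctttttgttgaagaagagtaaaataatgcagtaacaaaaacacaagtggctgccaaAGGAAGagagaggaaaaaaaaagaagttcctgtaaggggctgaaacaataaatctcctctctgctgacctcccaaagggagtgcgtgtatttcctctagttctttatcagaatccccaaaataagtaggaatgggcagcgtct
Tie1 promoter: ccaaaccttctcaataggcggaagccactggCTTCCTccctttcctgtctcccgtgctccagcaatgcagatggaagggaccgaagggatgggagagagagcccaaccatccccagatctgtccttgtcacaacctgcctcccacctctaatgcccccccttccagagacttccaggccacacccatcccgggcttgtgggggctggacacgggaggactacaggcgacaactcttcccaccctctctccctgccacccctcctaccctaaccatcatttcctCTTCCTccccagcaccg
Each of the 3 held 2 matches, and they were chosen from genes with a match. Among other genes with this order of libraries, Flt1 also held 2, Cd34 held 1, Kdr and Esm1 held 0, and the 3 promoters of Egfl7 held 3, 2 and 0. Promoter entries were found for 21 of the 38 genes, 27 promoters in all, and 40.7% of them held the ETS core, against 35.4% of all 32851 promoters of the same length. The core of the hypoxia-response element, ACGTG, was in 11.1% of the promoters of these genes and in 19.6% of all promoters. CACCC, the core bound by KLF factors, was in 77.8% against 57.5%, and the SOX motif ACAATGG was in 0 of the 27 and in 3.66% of all promoters. All motifs were searched on both strands, and CACCC can overlap longer GC-rich motifs. These matches describe letters in a window and are not binding sites.

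The libraries differed in ways that touch the results. Their FPKM summed to between 403569 and 573858 in the cancers, and between 887141 and 992550 in the controls, and read numbers are not part of the values, so depth is unknown. Of the deleted genes, Rb1 had 4, 4, 5, 6 and 4 FPKM in the cancers against 9, 9 and 10 in the controls, while Trp53 had 12, 22, 12, 30 and 12 against 16, 17 and 19. A value per gene cannot tell the deleted exons of these genes from those that were left. Neuroendocrine markers summed to between 8187 and 18370 FPKM in the cancers, and between 127 and 191 in the controls. The labelled tissue was checked with its epithelial markers. Markers of acid-secreting parietal cells summed to between 6691 and 12535 in the controls, to between 218 and 2691 in cancers 2 to 5 and to 1 in cancer 1, and squamous markers to between 2155 and 3577 in the controls, to between 29 and 1872 in cancers 2 to 5 and to 2 in cancer 1.

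Among the VEGF ligands, Vegfa and Vegfc were higher and Vegfb was lower in the cancers. Vegfa (Entrez 22339, chromosome 17, 46016993 to 46032377, mm10), the main growth factor for blood vessels, had FPKM of 50, 32, 51, 34 and 55 in cancers 1 to 5 and 19, 18 and 28 in controls 1 to 3. Every cancer was above every control (log2 fold change 0.99, SE 0.24, limma adjusted p = 0.018). Vegfb (Entrez 22340, chromosome 19, 6982472 to 6987651), a ligand of VEGFR1 linked to fatty acid uptake rather than to sprouting, had 9, 22, 15, 44 and 18 FPKM in the cancers against 38, 58 and 64 in the controls. Cancer 4 lay above control 1, so the groups overlapped (log2 fold change -1.41, SE 0.45, limma adjusted p = 0.045). This call was kept in 1 of the 8 fits that leave out a library, that without cancer 4 (limma adjusted p = 0.011, and 0.063 to 0.14 in the others). It was also lost with each library rescaled to the same sum (TPM, limma adjusted p = 0.28) and after quantile normalization (limma adjusted p = 0.091). TPM moved the median of all genes to 0.81, and relative to that median Vegfb lay at -1.29 with TPM, at -1.38 without rescaling and at -1.09 after quantile normalization. Vegfc, the ligand of VEGFR3 and of lymphatic growth, was at 1, 2, 3, 2 and 1 in the cancers, and it was listed at 0 in all 3 controls (limma adjusted p = 0.0058).

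Vegfa and Vegfb were also compared within each library. The level of Vegfb minus that of Vegfa on the log2(FPKM + 1) scale was -2.35, -0.52, -1.70, 0.36 and -1.56 in cancers 1 to 5 and 0.96, 1.63 and 1.16 in controls 1 to 3. All 3 controls held more Vegfb than Vegfa, and cancer 4 was the only cancer that did. The groups did not overlap, with means of -1.15 ± 1.07 (SD, n = 5) and 1.25 ± 0.34 (SD, n = 3). The difference of -2.41 had p = 0.036 in an exact permutation test (two-sided, 56 arrangements of the group labels), where 0.018 is the smallest p these numbers allow, and p = 0.21 after adjustment over the 12 pairs of genes compared this way, a value that a lone pair at the smallest p would also have.

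Of the receptors and co-receptors of VEGF, Nrp1 and Flt4 were higher in the cancers. Nrp1 (neuropilin-1, which binds VEGF-A beside VEGFR2) had 12, 5, 11, 6 and 5 FPKM against 2, 2 and 1, so that the lowest cancer was above the highest control (log2 fold change 1.66, SE 0.33, limma adjusted p = 0.0092). Flt4, the receptor of VEGF-C, was at 1 in all 5 cancers and at 0 in all 3 controls (limma adjusted p = 0.0011). This is the smallest step that whole-number values can show, and an unrounded level just above or just below the rounding limit would give the same picture. Neither group had any spread in Flt4, so its p-value rests on the variance that limma takes from other genes. Kdr, the main signalling receptor for VEGF-A, had 7, 3, 8, 3 and 1 FPKM in the cancers against 1, 2 and 2 in the controls, with cancers 1 to 4 above and cancer 5 at the lower end of the controls (log2 fold change 0.84, SE 0.49, limma adjusted p = 0.20). Flt1, a high-affinity receptor that also acts as a decoy for VEGF-A, showed the same order with 4, 2, 3, 2 and 1 against 1, 1 and 1 (limma adjusted p = 0.088). Nrp2, the neuropilin of veins and lymphatics, ranged from 2 to 6 in the cancers, while the controls had 1, 2 and 1, with cancer 2 highest (limma adjusted p = 0.078).

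Of the angiopoietin ligands, Angpt2 was called and Angpt1 was not. Angpt2 (Entrez 11601, chromosome 8, 18690263 to 18741562) had 3, 4, 2, 2 and 3 FPKM in the cancers, and it was listed at 0 in every control (limma adjusted p = 0.0011). Angpt1 never passed 1 FPKM in any library, with 0, 1, 1, 1 and 0 in the cancers against 0 in the controls (limma adjusted p = 0.16). Every cancer therefore held more Angpt2 than Angpt1, by 0.58 to 2 on the log2(FPKM + 1) scale, while in the controls both were listed at 0. In the annotation 17.3% of the exon bases of Angpt1 are shared with the gene Gm17473 on the other strand.

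The TIE receptors were not called. Tie1 had 5, 3, 3, 3 and 1 FPKM against 1, 1 and 1 (log2 fold change 0.92, SE 0.32, limma adjusted p = 0.057), and only cancer 5 was not above the controls. Tek, the receptor of the angiopoietins, was at 1, 2, 1, 1 and 1 in the cancers against 3, 1 and 0 in the controls (log2 fold change 0.12, limma adjusted p = 0.84), and its direction turned after quantile normalization (-0.31) and without control 3 (-0.38). The spread of Tek among the controls was thus as wide as among all 8 libraries.

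Of the surface and junction proteins of endothelium, 6 of 9 were higher, where 16.2% of all genes tested were. Without control 1 only Esam of the 9 was higher (9.6% of all genes), and without cancer 5 all 9 were (15.4%). After quantile normalization Pecam1, Cdh5 and Esam were higher (13.2% of all genes). Pecam1 (Entrez 18613, chromosome 11, 106654213 to 106715281), a homophilic adhesion protein, had 20, 10, 10, 8 and 8 FPKM against 2, 5 and 3 (log2 fold change 1.47, SE 0.34, limma adjusted p = 0.015). Cdh5 (Entrez 12562, chromosome 8, 104101613 to 104144504), the cadherin of endothelial junctions, had 10, 5, 5, 5 and 2 against 1 in every control (log2 fold change 1.56, SE 0.36, limma adjusted p = 0.016). Esam, a tight junction adhesion molecule, had 22, 16, 21, 17 and 10 against 3, 5 and 7 (log2 fold change 1.61, SE 0.31, limma adjusted p = 0.0077). In these 3 genes the groups did not overlap. Among the 38 this held for 13, each with the cancers above, and for 0 with the cancers below, where 14.4% of all genes tested had every cancer above every control and 19.8% every cancer below. Of the 13, Vegfc, Flt4, Angpt2, Robo4, Prox1 and Apln were at 0 in every control, passed the filter only through the cancers and could not lie below. The rest of the 13 were Vegfa, Nrp1, Pecam1, Cdh5, Esam, S1pr1 and Pdpn. Mean FPKM was 11.2 ± 5.02 (SD, n = 5) and 3.33 ± 1.53 (SD, n = 3) for Pecam1, 5.40 ± 2.88 and 1 ± 0 for Cdh5, and 17.2 ± 4.76 and 5 ± 2 for Esam.

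Eng, Emcn and Vwf were also higher. Eng had 14, 9, 11, 10 and 2 FPKM against 1, 2 and 2 (log2 fold change 1.78, SE 0.51, limma adjusted p = 0.031). Emcn had 12, 8, 10, 10 and 2 against 1, 3 and 2 (log2 fold change 1.55, SE 0.50, limma adjusted p = 0.045). Both calls were lost in 7 of the 8 fits that leave out a library, with limma adjusted p of 0.055 to 0.11 for Eng and 0.074 to 0.15 for Emcn, and held without cancer 5. In both genes cancer 5 lay among the controls while the other 4 cancers stood clear of them. Vwf, the clotting factor stored by endothelial cells, had 2, 2, 1, 2 and 2 against 0, 1 and 0 (log2 fold change 1.13, SE 0.28, limma adjusted p = 0.018), a difference of 1 or 2 rounded units.

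The remaining surface genes, Cd34, Icam2 and Plvap, were not called. Plvap, which forms the diaphragms of fenestrated capillaries, had the highest mean of the surface genes in both groups, though Esam was above it in cancer 5. It had 45, 28, 30, 25 and 8 FPKM in the cancers against 7, 17 and 17 in the controls (log2 fold change 0.86, SE 0.53, limma adjusted p = 0.23). Cd34, a sialomucin of capillaries and progenitors, had 12, 11, 9, 7 and 2 against 4, 4 and 3 (limma adjusted p = 0.19). Icam2, a ligand for leukocyte integrins, had 6, 3, 3, 2 and 0 against 1, 1 and 1 (limma adjusted p = 0.36). In all 3 genes cancers 1 to 4 were above every control and cancer 5 was not. In the annotation 5.67% of the exon bases of Cd34 are shared with Gm16897 on the other strand.

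**Figure D2:**
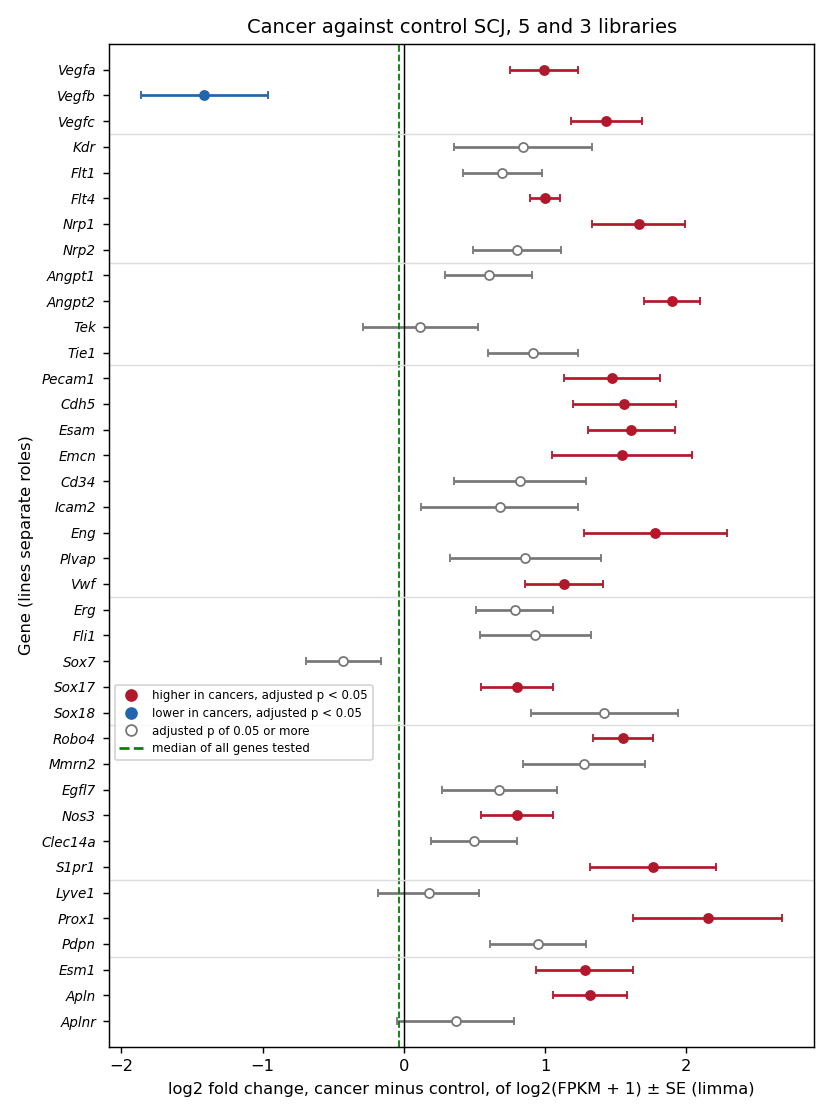
Log2 fold change of log2(FPKM + 1), cancers minus controls, with its standard error for each of the 38 genes (limma). Filled red points are the 18 genes called higher, the blue point is Vegfb, open points have an adjusted p of 0.05 or more, and the dashed green line is the median of all 14357 genes tested at -0.04. For the 9 genes at 0 in every control (Vegfc, Flt4, Angpt1, Angpt2, Sox17, Robo4, Nos3, Prox1 and Apln) the position depends on the pseudocount.

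Of the 5 transcription factors of endothelium, 1 was called higher, near the share of all genes (16.2%). Sox17, a factor of arterial identity, was at 1 in cancers 1 to 4 and at 0 in cancer 5 and the controls (limma adjusted p = 0.045). Sox18, which acts in lymphatic and blood vessel development, had the highest mean of the 5 in the cancers, though Sox7 was above it in cancer 5. Its values were 8, 7, 9, 5 and 1 FPKM against 1, 2 and 1 (log2 fold change 1.42, SE 0.52, limma adjusted p = 0.067). Sox7 had 1, 1, 2, 3 and 2 in the cancers against 2, 3 and 3 in the controls (log2 fold change -0.43, SE 0.27, limma adjusted p = 0.23). With TPM its log2 fold change was 0.25, but relative to the median of all genes Sox7 was at -0.56 with TPM and at -0.39 without rescaling. The ETS factors Erg and Fli1 had 2, 1, 1, 1 and 1 and 4, 1, 1, 1 and 1 FPKM in the cancers against 0, 1 and 0 each in the controls, and neither was called (limma adjusted p = 0.059 and 0.098). In both, cancer 1 alone was above the others.

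Of the genes for vessel stability and signalling, Robo4, Nos3 and S1pr1 were higher in the cancers. Robo4, a receptor that keeps vessels from leaking, had 3, 2, 2, 2 and 1 FPKM and was listed at 0 in all controls (limma adjusted p = 0.0028). S1pr1, the receptor for sphingosine 1-phosphate, had 9, 3, 2, 3 and 2 against 0, 1 and 0 (log2 fold change 1.77, SE 0.44, limma adjusted p = 0.021), again with cancer 1 far above the rest. Nos3, the nitric oxide synthase of endothelium, was at 1 in cancers 1 to 4 and at 0 elsewhere (limma adjusted p = 0.045). In the annotation Nos3 shares 25.2% of its exon bases with Gm15587 and 7.12% with Atg9b, both on the other strand, and the strand setting of the counting is not given in the sources used here.

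Mmrn2, Clec14a and Egfl7 belong to the same circle and were not called. Mmrn2, a matrix protein that binds VEGF-A and the lectin CLEC14A, had 6, 3, 4, 2 and 1 FPKM against 0, 1 and 1 (log2 fold change 1.28, SE 0.43, limma adjusted p = 0.054). Clec14a itself had 4, 2, 2, 1 and 1 against 1 in each control (log2 fold change 0.50, SE 0.31, limma adjusted p = 0.23). Egfl7, a secreted protein of growing vessels, had 12, 11, 13, 11 and 3 against 5, 5 and 6, with 4 even cancers and cancer 5 below all controls (log2 fold change 0.68, SE 0.41, limma adjusted p = 0.22). In the annotation 14.1% of its exon bases are shared with Gm20532 on the same strand.

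Of the 3 lymphatic genes, 1 was called higher, where 16.2% of all genes tested were. Prox1 (Entrez 19130, chromosome 1, 190118035 to 190170827), the master regulator of lymphatic endothelium that hepatocytes and some endocrine cells also make, had 5, 1, 3, 2 and 11 FPKM and was listed at 0 in the controls (limma adjusted p = 0.019). Its highest value was in cancer 5, where Lyve1, a hyaluronan receptor of lymphatic capillaries, was at 3 FPKM and the hepatocyte markers Alb, Fga and Fgg were at 266, 65 and 93. Other hepatocyte markers did not follow this order. Ttr was at 455 in cancer 5, the lowest of the cancers, and Ahsg was at 492 or more in every cancer. Prox1 is also 1 of 8 neuroendocrine markers, all called higher (16.2% of all genes), which summed to 17055 FPKM in cancer 5, to between 8187 and 18370 in the cancers as a whole and to between 127 and 191 in the controls. The part of neuroendocrine cells and of hepatocytes in the level of Prox1 was not tested. Lyve1 had 4, 5, 1, 2 and 3 in the cancers against 3, 2 and 2 in the controls (log2 fold change 0.18, limma adjusted p = 0.72), a direction that turned after quantile normalization (-0.21). Pdpn, podoplanin of lymphatics, of many stromal cells and of squamous epithelium, had 2, 3, 2, 7 and 2 against 1, 1 and 1 without overlap (log2 fold change 0.95, SE 0.34, limma adjusted p = 0.061). Its highest value was in cancer 4, which also had the highest squamous sum of the cancers, 1872 FPKM against 2155 to 3577 in the controls, and the part of squamous cells in it was not tested. The level of Lyve1 minus that of Prox1 was 1.58 to 2 in the controls and -1.58 to 1.58 in the cancers on the log2(FPKM + 1) scale (exact permutation test, two-sided, p = 0.089, adjusted p = 0.36 over the 12 pairs). Of 6 lymphatic endothelium markers tested, 4 of them from the 38 genes, Prox1 and Flt4 were higher (16.2% of all genes), and with any 1 of the controls left out 1 of the 6 was. Ccl21a, a chemokine of lymphatics, had 65 FPKM in cancer 1, between 8 and 20 in cancers 2 to 4, 4 in cancer 5 and between 3 and 7 in the controls (limma adjusted p = 0.13).

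Genes of sprouting tip cells and of the apelin pathway were at low levels. Esm1, a secreted proteoglycan typical of tip cells, had 4, 2, 2, 2 and 1 FPKM against 0, 0 and 1 (log2 fold change 1.28, SE 0.34, limma adjusted p = 0.025). Apln, the peptide apelin, had 3, 1, 1, 2 and 1 against 0 in all controls (limma adjusted p = 0.0092). Its receptor Aplnr had 2, 1, 2, 1 and 0 against 0, 1 and 1 and was not called (log2 fold change 0.37, limma adjusted p = 0.51), and it turned to -0.017 after quantile normalization.

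**Figure D3:**
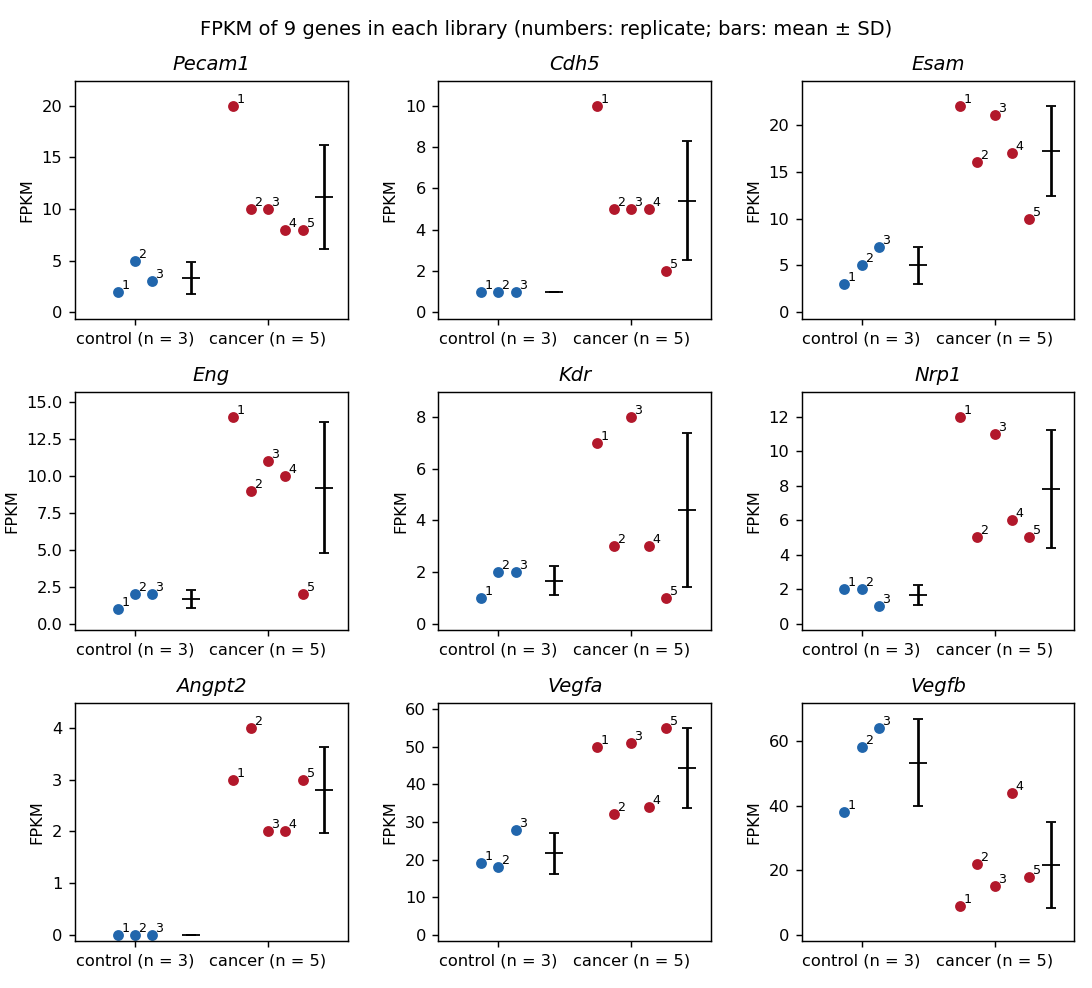
FPKM of Pecam1, Cdh5, Esam, Eng, Kdr, Nrp1, Angpt2, Vegfa and Vegfb in each library, with the 3 controls in blue on the left and the 5 cancers in red on the right of each panel. Points carry their replicate number, black bars are the mean ± SD, and each panel has its own vertical axis. Cancer 5 lay at the level of the controls for Eng and Kdr and was the highest library for Vegfa.

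Cancer 5 stood apart from the other cancers. It was alone the lowest of the 5 in 18 of the 38 genes, where this held for 9.61% of all genes tested, and alone the highest in 2, Vegfa and Prox1 (17.3% of all genes). Cancers 1 to 4 were all above every control in 27 of the 38 (16.4% of all genes). Of the 27, Vegfc, Flt4, Angpt2, Sox17, Robo4, Nos3, Prox1 and Apln were at 0 in every control and passed the filter on low values only through the cancers. In 14 of these 27, namely Kdr, Flt1, Tie1, Emcn, Cd34, Icam2, Eng, Plvap, Sox17, Sox18, Mmrn2, Egfl7, Nos3 and Esm1, cancer 5 was not above the highest control, against 12.6% of the 2361 genes in which cancers 1 to 4 were all above every control. Over all genes tested the same order was seen in 2.07%, beside these 14 of the 38. When cancer 5 was left out, 26 of the 38 were called, all higher, against 15.4% of all genes called higher in the same fit. Cd34, Egfl7, Flt1, Icam2, Mmrn2, Plvap, Sox18 and Tie1 were gained and Vegfb was lost. The adjusted p (limma) then was 0.0034 for Egfl7, 0.0019 for Eng and 0.041 for Plvap. Cancer 5 was singled out by its low values in these same genes. Leaving it out raises their change and narrows their spread by construction, so these calls and p-values are no independent support.

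Markers of other cell types also differed between cancer 5 and the other cancers. The hepatocyte markers Alb and Fgb were at 266 and 111 FPKM in cancer 5, between 1 and 58 and between 0 and 20 in cancers 1 to 4, and at 1 and 0 in every control. Fga, Fgg, Apoh and Serpina1a were at 65, 93, 21 and 11 in cancer 5 and at 0 in every other library. The members of this list did not all run the same way for cancer 5, since Ahsg had 2386, 647, 812, 492 and 2886 FPKM against 1, 2 and 1, and Ttr 2011, 890, 1073, 668 and 455 against 66, 94 and 74, with cancer 5 the lowest cancer. These last 2 genes made up most of the sum of the 8 markers, which was between 1161 and 4433 in the cancers, with 3908 in cancer 5, and between 68 and 97 in the controls. Markers of fibroblasts summed to 65 FPKM in cancer 5, between 235 and 358 in the other cancers and between 78 and 157 in the controls. Without cancer 5, 4 of the 8 fibroblast markers were called higher (15.4% of all genes), among them Col1a1 and Col3a1 (limma adjusted p = 0.0050 and 0.0052). Markers of pericytes, the mural cells around capillaries, summed to 27 FPKM in cancer 5, between 47 and 77 in the other cancers and between 24 and 31 in the controls. Of 8 markers of liver sinusoidal endothelium 5 were tested, and Stab1, Fcgr2b and Ctsl were higher in the cancers (16.2% of all genes). Stab1, a scavenger receptor that macrophages also make, had 3, 3, 3, 2 and 2 FPKM against 1, 1 and 1 (limma adjusted p = 0.0082). Fcgr2b, an inhibitory antibody receptor also of B cells and myeloid cells, had 7, 5, 9, 6 and 12 against 3, 2 and 1 (limma adjusted p = 0.0097). The lysosomal protease Ctsl, which many cells make, was at 1295 FPKM in cancer 5, against 204 to 620 in cancers 1 to 4 and 44 to 72 in controls, so that Fcgr2b and Ctsl were both highest in cancer 5. Dnase1l3, with 5, 0, 1, 1 and 1 against 1, 1 and 3 (log2 fold change -0.22, limma adjusted p = 0.77), and Gpr182, with 2, 0, 1, 0 and 1 against 0, 1 and 0 (limma adjusted p = 0.51), were not called, and Stab2, Clec4g and Oit3 were at 0 or 1 in every library. The part of these values in the levels of the 38 genes was not tested.

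Cancer 1 lay at the other end. It was alone the highest cancer in 19 of the 38 genes, against 15.6% of all genes tested. Its 9 leukocyte markers summed to 232 FPKM, while those of cancers 2 to 5 summed to 28 to 61 and those of the controls to 17 to 20, with Cd79a of B cells at 68 FPKM and the pan-leukocyte gene Ptprc at 21. Of those 9 markers 2, Csf1r and Itgam of myeloid cells, were called higher in the cancers (16.2% of all genes). Without cancer 4, 5 of 8 tested were called, where 36.0% of all genes were called in either direction. Without cancer 3, 1 was called (24.4% of all genes), and without any 1 of the controls, 1 was (17.5% to 19.8%). Pecam1, S1pr1 and Fli1, each highest in cancer 1, are also made by leukocytes, and the part of leukocytes in their levels was not tested. Without cancer 1, 14 of the 38 were called (13.9% of all genes called higher), among them Pecam1 and S1pr1, and Emcn, Eng, Nos3, Sox17 and Vegfb were lost.

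To describe the endothelial content of a library, 10 genes made mainly by endothelium (Pecam1, Cdh5, Tie1, Esam, Robo4, Mmrn2, Egfl7, Clec14a, Sox18 and Erg) were summed. The sums were 92, 60, 70, 55 and 29 FPKM in cancers 1 to 5 and 14, 22 and 21 in controls 1 to 3. Cancer 1 was highest and cancer 5 lowest of the cancers, and every cancer was above every control in this sum. That last point did not hold for the sums of other endothelial sets. The 9 surface and junction genes summed to 36 in cancer 5 against 20, 39 and 36 in the controls, and 27 endothelial genes outside the 38 to 52 in cancer 5 against 54 to 62, while cancers 1 to 4 were above the controls in both, at 86 to 143 and 87 to 111. The control sums of the 27 rest largely on Unc5b (27, 15 and 26 FPKM) and Sox13 (15, 12 and 14), both lower in the cancers. As mean log2(FPKM + 1), the 27 were at 1.30 in cancer 5 against 0.94, 1.11 and 0.92, above every control. On that scale the 9 surface and junction genes were at 1.97 in cancer 5 against 1.43, 2.03 and 1.82. Set against the mean log2(FPKM + 1) of these 10 genes in the same library, 5 of the 38 were lower in every cancer than in any control, Vegfb (1.90 against 4.49, a difference of -2.59), Sox7 (-0.99 against 0.62), Aplnr (a difference of -0.81), Clec14a (-0.68) and Flt1 (-0.48). In the other 33 the groups overlapped, with differences from -1.06 for Tek to 0.72 for Angpt2 and 0.97 for Prox1. For Vegfa the distance was 3.05 against 3.23, and in cancer 5 it was 4.19 above the 10 genes, against 2.56 to 3.09 in the other cancers. No test of these distances was run, their share over all genes was not computed, and Clec14a is itself one of the 10. Aplnr, Clec14a and Flt1 were at 0 to 4 FPKM, and their mean FPKM was higher in the cancers (1.2 against 0.67, 2 against 1 and 2.4 against 1). The log2(FPKM + 1) scale understates the change of such low genes, so these distances do not show less of their RNA per endothelial cell.

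**Figure D4:**
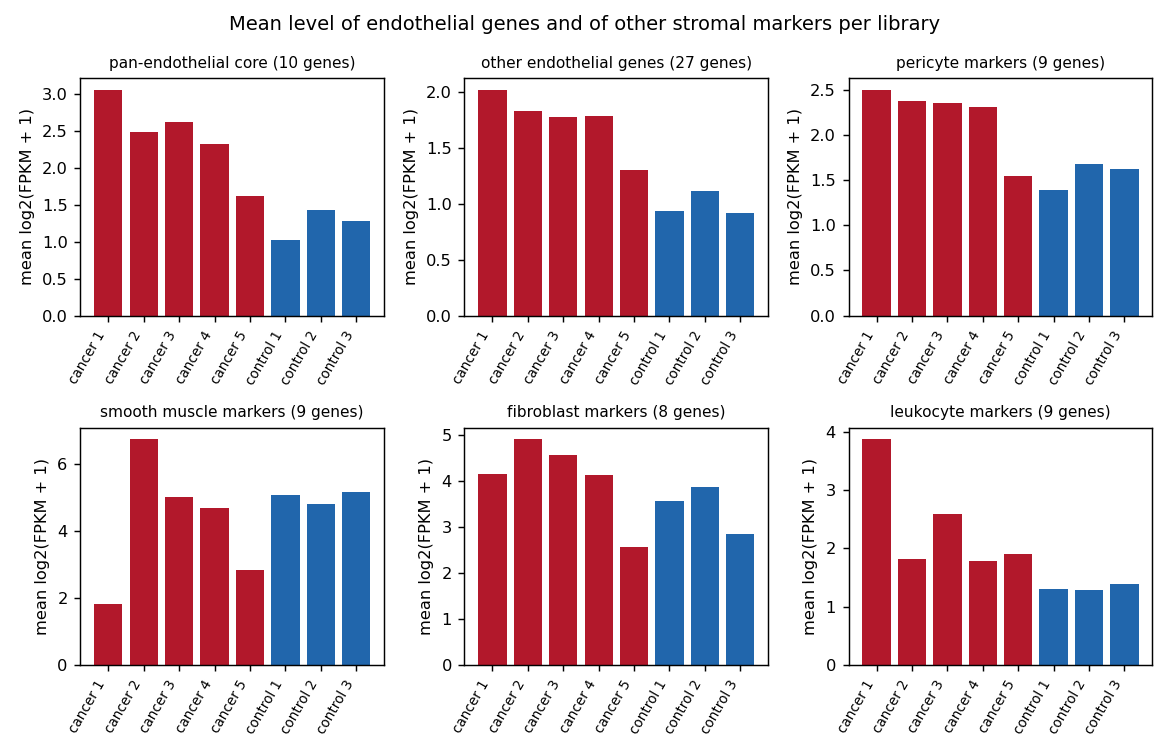
Mean log2(FPKM + 1) per library of the 10 endothelial genes, of 27 other endothelial genes and of markers of pericytes, smooth muscle, fibroblasts and leukocytes, with cancers in red and controls in blue. The mean of the 10 endothelial genes was 3.05 in cancer 1, 1.62 in cancer 5 and between 1.02 and 1.43 in the controls, and the leukocyte mean was highest in cancer 1, at 3.87.

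Ratios between the genes themselves were compared next. Of 12 pairs compared within each library, 0 passed at an adjusted p under 0.05 (two-sided exact permutation test), and 2 had an unadjusted p under 0.05, Vegfb against Vegfa and Angpt2 against Angpt1. For the latter, both genes were listed at 0 in every control, so the pair adds nothing to the values of Angpt2 itself. Plvap minus Pecam1 was 1.11 ± 0.64 (SD, n = 5) in the cancers against 1.72 ± 0.40 (SD, n = 3) in the controls (exact permutation p = 0.18, adjusted p = 0.39). In cancer 5 this value was 0, against 1.13 to 1.53 in the other cancers. Vegfa minus Kdr was 4.81 in cancer 5 and between 2.53 and 3.13 in cancers 1 to 4, with the controls between 2.66 and 3.32 (exact permutation p = 0.91). No pair could pass unless at least 5 of the 12 passed together, since a lone pair at the smallest p of 0.018 adjusts to 0.21, so the adjusted values say nothing of whether single ratios differed.

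Endothelial genes outside the 38 were also examined. Of 25 further endothelial genes tested, 10 were higher and 2, Unc5b and Sox13, lower in the cancers (median log2 fold change 0.85), where 16.2% of all genes were higher and 18.3% lower. With TPM 20 were higher and 1 lower (50.0% of all genes were higher), and after quantile normalization 5 were higher (13.2%) and 1 lower. Without control 1 and without control 3, 6 were higher (9.6% and 10.7% of all genes) and 1 lower, and without cancer 5, 15 were higher (15.4%) and 1 lower. Arhgef15, an endothelial exchange factor, had 3, 3, 4, 1 and 2 FPKM against 0 in the controls (limma adjusted p = 0.0044), and Gpihbp1, which carries lipoprotein lipase across capillaries, had 7, 2, 5, 7 and 3 against 1, 1 and 0 (log2 fold change 1.77, limma adjusted p = 0.015). Ramp2, the adrenomedullin co-receptor, had 19, 20, 13, 9 and 2 against 2, 4 and 2 (limma adjusted p = 0.074), with cancer 5 again at the level of the controls. Unc5b, a netrin receptor of vessels that epithelia also make, had 4, 8, 4, 3 and 5 against 27, 15 and 26 (log2 fold change -2.04, SE 0.30, limma adjusted p = 0.0033).

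Among 28 other angiogenic ligands and receptors tested, 10 were higher and 1 lower (16.2% and 18.3% of all genes), with a median log2 fold change of 0.44. Without control 1, 2 or 3, 4, 6 or 5 were higher (9.6%, 10.1% and 10.7% of all genes) and 0, 0 or 2 lower. With TPM 14 were higher and 1 lower, so 14 of 28 is the 50.0% of all genes called higher in that fit. After quantile normalization 6 were higher (13.2% of all genes) and 1 lower. Pgf, placental growth factor and a ligand of VEGFR1, had 6, 2, 19, 15 and 8 FPKM against 1, 1 and 1 (log2 fold change 2.18, SE 0.58, limma adjusted p = 0.024). Fgf1, a fibroblast growth factor, had 17, 6, 24, 23 and 28 against 1, 2 and 2 (log2 fold change 2.82, limma adjusted p = 0.0046). Col18a1, the collagen from which endostatin is cut, had 69, 32, 41, 24 and 17 against 7, 10 and 3 (log2 fold change 2.26, limma adjusted p = 0.012). The gene that fell was Sema3c, a semaphorin, with 1, 9, 3, 12 and 7 against 38, 34 and 26 (log2 fold change -2.45, limma adjusted p = 0.018). Ligands from tumor or stromal cells are in this list, so it does not measure endothelium alone.

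Of 12 arterial and Notch genes 2 were higher and 2 lower, near the shares over all genes (16.2% and 18.3%). With TPM 5 were higher and 0 lower, where 50.0% of all genes were higher, and without control 2, 2 were higher and 0 lower. Dll4, the Notch ligand of tip cells and arteries, had 6, 4, 8, 5 and 5 FPKM against 1, 1 and 1 (log2 fold change 1.69, SE 0.20, limma adjusted p = 0.0016), and Hey1, a Notch target, had 11, 4, 9, 3 and 3 against 0, 0 and 1 (log2 fold change 2.31, limma adjusted p = 0.0094). Jag1, a Notch ligand that epithelia make too, was lower with 2, 4, 3, 7 and 3 against 12, 9 and 8 (log2 fold change -1.22, limma adjusted p = 0.022). Of 5 genes of veins and activated endothelium tested, 3 were higher and 1 lower (16.2% and 18.3% of all genes), and with TPM 3 were higher, near the 50.0% of all genes, and 0 lower. The adhesion molecules Vcam1 (19, 6, 11, 5 and 11 against 2, 2 and 1) and Icam1 (10, 7, 4, 7 and 9 against 1, 2 and 1) rose (limma adjusted p = 0.0095 and 0.0039), while Nr2f2, the vein-specifying factor also made by stroma, fell (log2 fold change -1.35, limma adjusted p = 0.0062).

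Vegfa is a known target of the hypoxia-inducible factors, and other hypoxia-responsive genes were counted beside it. Of 14 tested, 1 was higher and 4 were lower (median log2 fold change -0.32), where 16.2% of all genes were higher and 18.3% lower, and with TPM 6 were higher (50.0% of all genes) and 1 lower. The median of the list with TPM, 0.55, was below the 0.81 of all genes, as it was before rescaling (-0.32 against -0.04). Without cancer 1 or cancer 3, 1 was higher and 2 lower, without control 1 or 2, 1 was higher and 1 lower, and without control 3, 2 were higher and 1 lower. P4ha1, a collagen prolyl hydroxylase, had 30, 8, 25, 17 and 11 FPKM against 4, 4 and 3 (log2 fold change 1.90, limma adjusted p = 0.012). Egln3, an oxygen-sensing prolyl hydroxylase, had 4, 15, 4, 18 and 25 against 67, 45 and 71 (log2 fold change -2.41, limma adjusted p = 0.021). Ero1l, an oxidase of protein folding, had 19, 23, 20, 22 and 49 against 132, 72 and 80 (log2 fold change -1.83, limma adjusted p = 0.0074). The list holds glycolytic genes such as Ldha and Pgk1, which were among the lower ones.

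Other cells that share the vessel wall were counted with their markers. Of 9 pericyte markers 3 were higher (16.2% of all genes), among them Pdgfrb, the PDGF receptor of mural cells, with 7, 4, 9, 7 and 2 FPKM against 1, 1 and 1 (log2 fold change 1.65, SE 0.38, limma adjusted p = 0.016). With any 1 of the 3 controls left out, 0 of the 9 were called, and without cancer 2, 1 was. Of 9 smooth muscle markers 0 and of 8 fibroblast markers 0 were called with limma, and the smooth muscle sum ran from 47 in cancer 1 to 1746 in cancer 2, with controls between 376 and 569. At an unadjusted p under 0.05, 0 of the smooth muscle and 1 of the fibroblast markers passed. Platelet and red blood cell markers gave 0 calls among 4 and 2 genes tested, and 0 and 0 at an unadjusted p under 0.05. With TPM 6 of the 8 fibroblast markers were higher (50.0% of all genes), and without cancer 5, 4 were (15.4% of all genes). The part of these cells in the levels of the 38 genes was not tested.

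The number of calls depended on the controls and on scaling. Without control 1, 2 or 3, 7, 11 or 9 of the 38 were called, all higher, when 9.6%, 10.1% and 10.7% of all genes were called higher. With TPM 31 of the 38 were higher and 0 lower, but then 50.0% of all genes were called higher and their median moved to 0.81. Relative to that median the 38 had a median of 0.91, against 0.98 without rescaling. After quantile normalization 9 were called, all higher (13.2% of all genes), and the median of the 38 was 0.66 above that of all genes. Angpt2, Apln, Esam, Flt4, Nrp1, Robo4 and Vegfc were called with all 8 libraries and in each of the 8 fits without 1 library. Of these 7, Angpt2, Apln, Flt4, Robo4 and Vegfc were at 0 in every control, so their controls have no spread in whole-number values and their count of fits says little of how stable they are, while Esam and Nrp1 had values above 0 in the controls. The highest adjusted p (limma) over those 8 fits was 0.058 for Cdh5, 0.064 for Pecam1, 0.067 for Prox1, 0.073 for Vegfa, 0.076 for Vwf, 0.081 for S1pr1 and 0.099 for Esm1, reached in each without control 1 or 2. Emcn, Eng, Sox17 and Nos3 were called in 1 of the 8 fits, that without cancer 5, and without control 1 their limma adjusted p was 0.15, 0.11, 0.12 and 0.12. Of the 7 genes called in every fit, Angpt2, Esam, Nrp1, Robo4 and Vegfc were also called after quantile normalization. In either direction, 34.5% of all genes tested were called with all libraries, 29.6%, 37.0%, 24.4%, 36.0% and 31.9% without cancers 1 to 5, in the order given, and 17.5%, 18.6% and 19.8% without controls 1 to 3, where 14, 14, 13, 16 and 26 and 7, 11 and 9 of the 38 were called. With TPM 53.7% of all genes were called, and with array weights 56.8%, beside 24 of the 38. The share was 33.4% with a pseudocount of 0.1, 29.2% with every gene above 0 in any library, 34.3% without the trend, 38.5% at a mean of at least 5 FPKM, 26.4% after quantile normalization and 10.7% with the replicate number as a block.

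**Figure D5:**
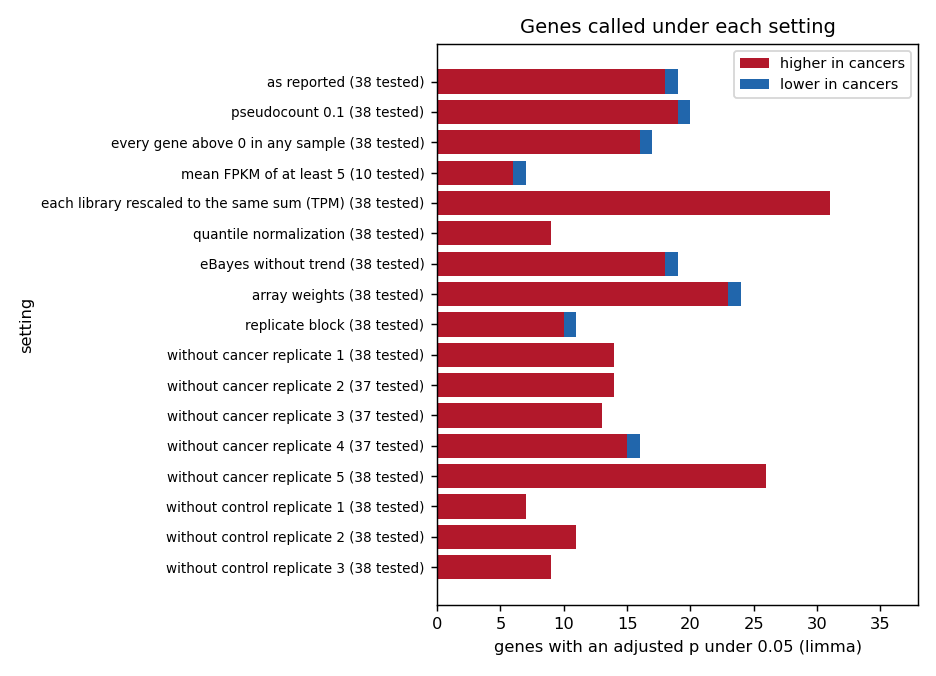
Number of the 38 genes with an adjusted p under 0.05 (limma), higher or lower in the cancers, under each setting. The bars run from 7 of 38 without control 1 (and 7 of the 10 genes tested at a mean of at least 5 FPKM) to 31 of 38 with TPM.

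Rounding sets a further limit. In 12 of the 38 genes no library was above 3 FPKM, and 7 of these 12 were called higher, where 16.2% of all genes tested were. The share among all genes this low was not computed. In 5 genes, Vegfa, Nrp1, Angpt2, Pecam1 and Esam, every cancer was at least 2 FPKM above every control, against 8.36% of all genes tested. In a fit of genes with a mean of at least 5 FPKM, 10 of the 38 remained, and 6 were higher and Vegfb lower, against 13.6% of those genes called higher.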

How the data were processed

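RNA of 5 SCJ cancers and 3 control SCJ tissues was sequenced. The control stomachs were from 3 mice. The sources used here do not say that each tumor came from a different mouse, so p-values measure the spread between samples. Per the labels, directional poly(A) libraries were made from total RNA. The submitters' processing notes name cutadapt 1.8, TopHat2 2.0.13, Cuffnorm 2.2.1 and mm10. The deposited values are FPKM that the authors rounded to whole numbers, so they were handled as a score rather than as read counts. Whole numbers made up 100% of them. Depth is unknown, so no counting intervals are given. The table has 8 value columns, and all were used. The 27 gene identifiers that a spreadsheet had turned into dates were replaced by the symbols of another column.

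R 4.3.3 and limma 3.58.1 (lmFit, then eBayes with a trend) were used on log2(FPKM + 1), over the 14357 genes with at least 1 FPKM in at least 3 samples, and p-values were adjusted by Benjamini-Hochberg (threshold 0.05). Differences between 2 genes within a library were compared for 12 pairs by an exact permutation test (two-sided, 56 arrangements of the labels). The fit was also tested on simulated data.

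The 38 genes, the further lists, the pairs and the tests were chosen with earlier results of these data known. All 38 are named. From the other lists, up to 4 genes with the largest change are named, besides those that bear on a result, and Apela, Ca9, Hbb-bs and Hbb-bt were not matched to the table. All 38 loci overlapped their RefSeq entry in GRCm38.p6. Motifs and promoters are from RefSeq, shared exons from GENCODE M21. As alternatives, each sample was left out in turn, and a pseudocount of 0.1, 2 other filters, array weights, eBayes with no trend, a block for the replicate number, quantile normalization and rescaling to equal sums (TPM) were tried.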

Additional observations from a re-analysis of the deposited data

Results flagged for a closer look

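Among 50 results examined for a cancer that lay apart from the other 4, 13 had one. The 2.5 that chance would give holds for independent, normally distributed values without rounding. These values are rounded and many of the genes move together, so 13 cannot be weighed against it. The measure is the gap to the nearest other cancer as a share of the range of the 5, and values above 0.71 (Dixon) were taken. Rounding to whole numbers makes a share of 1 easy to reach in low genes.

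Cancer 1 was highest for Pecam1 (20 FPKM, share 0.833), S1pr1 (9 FPKM, share 0.857), Fli1 (4 FPKM, share 1.0) and Erg (2 FPKM, share 1.0). Cancer 2 was highest for Nrp2 (6 FPKM, share 0.75) and Tek (2 FPKM, share 1.0), and cancer 4 was highest for Pdpn (7 FPKM, share 0.8). Cancer 3 was lowest for Vwf (1 FPKM, share 1.0). Cancer 5 was lowest for Egfl7 (3 FPKM, share 0.8), Sox17 (0 FPKM, share 1.0) and Nos3 (0 FPKM, share 1.0). Among differences within a library, on the log2(FPKM + 1) scale, cancer 5 was lowest for Plvap minus Pecam1 (0, share 0.739) and highest for Vegfa minus Kdr (4.81, share 0.737).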

How the results depend on the processing

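Of the 38 genes, 19 were called in either direction with the design as given, where 34.5% of all genes tested were. The number was 20 with a pseudocount of 0.1 (33.4% of all genes in that fit), 17 with every gene above 0 in any sample (29.2%) and 19 without the trend (34.3%). With array weights it was 24, but 56.8% of all genes were then called. It was 7 of the 10 genes tested at a mean of at least 5 FPKM (38.5%), 31 with TPM (53.7%), 9 after quantile normalization (26.4%) and between 7 and 26 when 1 sample was left out (between 17.5% and 37.0% of all genes). The fit at a mean of at least 5 FPKM tests fewer genes by construction, and for the others the cause was not tested. A fit with the replicate number as a block, which rests on the 3 numbers present in both groups, gave 11 calls (10 higher and 1 lower), 8 of them shared with the 19, where 10.7% of all genes were called. Same-numbered samples did not deviate together (correlations of -0.02, -0.19 and -0.10 for numbers 1 to 3), so the numbers do not pair the samples. Over all fits of single genes, 461 values kept direction and side of the threshold, 77 no longer passed, 33 passed newly and 6 changed direction.

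The log2 fold change of Tek turned to -0.31 and that of Aplnr to -0.017 after quantile normalization, that of Lyve1 to -0.21 there and to -0.014 with array weights, and that of Sox7 to 0.25 with TPM, where the median of all genes moved to 0.81 and Sox7 relative to it was at -0.56. Tek ranged from -0.38 to 0.62 when 1 sample was left out. None of these passed a threshold in either direction. The adjusted p of the 12 pairs is not read under the alternatives, since a lone pair at the smallest p these numbers of libraries allow (0.018) adjusts to 0.21 (exact permutation test). With a pseudocount of 0.1, Esm1 minus Pecam1 turned from -0.19 to 1.52 and Vegfa minus Kdr from 0.15 to -0.065. With TPM, Flt4 minus Kdr turned from 0.16 to -0.022 and Emcn minus Cdh5 from -0.013 to 0.0051. With medians, Flt1 minus Kdr turned from -0.15 to 0.17 and Vegfa minus Kdr to -0.23. When 1 sample was left out, the ranges were -0.62 to 0.17 for Esm1 minus Pecam1, -0.24 to 0.33 for Vegfa minus Kdr, -0.15 to 0.39 for Flt4 minus Kdr, -0.28 to 0.22 for Emcn minus Cdh5 and -0.28 to 0.049 for Flt1 minus Kdr.

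The depth of the libraries is unknown, and the whole-number values limit what can be told of genes at a few FPKM.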
